A study of Homo sapiens with 8 samples.

Results

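The genes described here are 10 chemokines that tumour cells can make: CXCL1, CXCL2, CXCL3, CXCL5, IL8, CCL20, CCL2, CCL5, CXCL10 and CXCL11. They were chosen by gene name among the 43317 genes of the array. IL8 is spelled CXCL8 on the array and was matched through that name. Each gene was read from its brightest probe. Expression was measured on 8 Agilent 2-colour arrays with 1 array per condition. On every array the Cy3 channel held RNA of mock cells, which the labels give as not transfected, and the Cy5 channel held RNA of transfected cells. FaDu cells, from a squamous carcinoma of the hypopharynx, received miR-99a-5p or miR-99a-3p. PC3 prostate cancer cells received miR-150-5p, miR-150-3p, miR-99a-3p or miR-100-3p. PANC-1 pancreatic cancer cells received si-FOXQ1-1 or si-FOXQ1-2, which are siRNAs against the transcription factor gene FOXQ1. All of the transfections used Lipofectamine RNAiMAX, and the dyes were not swapped on any array. A dye effect, an effect of the transfection itself and an effect of the transfected RNA therefore cannot be told apart within a ratio, and each condition is 1 culture of 1 cell line on 1 array.

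Chemokines are small secreted proteins that attract leukocytes along a gradient. CXCL1, CXCL2, CXCL3, CXCL5 and IL8 carry the ELR motif and attract neutrophils through the receptors CXCR1 and CXCR2, CCL20 attracts CCR6-bearing cells, and CCL2 attracts monocytes through CCR2. Their genes are classic targets of NF-kB, a transcription factor released by TNF, IL1 and Toll-like receptor signals. CXCL10 and CXCL11 attract activated T cells through CXCR3 and are classic interferon targets, while CCL5, which attracts T cells and monocytes, is induced both by NF-kB and by interferon regulatory factors. For counting, CXCL1, CXCL2, CXCL3, CXCL5, IL8, CCL20 and CCL2 were taken as 7 NF-kB-type genes and CCL5, CXCL10 and CXCL11 as 3 interferon-type genes.

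The promoters were searched for motifs of both classes. RefSeq promoter sequence (250 bases before to 50 bases after the start, build GRCh38.p14) was at hand for 8 of the 10 genes, all but CCL2 and CCL5. A kappa B motif spelled GGAATTTCC, searched on both strands, was in 7 of these 8 promoters, and in 162 of the 35116 promoters of the table, or 0.461%. The 7 windows of 35 bases are shown 5′ to 3′ along the gene with the motif in capitals, because they hold what the neutrophil-attracting genes share, and what CXCL10 and CXCL11 share with them.
CXCL1: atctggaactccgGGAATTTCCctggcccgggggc
CXCL2: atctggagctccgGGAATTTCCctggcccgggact
CXCL3: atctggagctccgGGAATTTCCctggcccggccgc
CXCL5: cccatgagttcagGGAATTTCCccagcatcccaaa
IL8: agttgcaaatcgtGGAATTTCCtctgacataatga
CXCL10: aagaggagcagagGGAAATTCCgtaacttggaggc
CXCL11: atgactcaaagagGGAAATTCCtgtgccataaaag
The windows lie on chromosome 4, at chr4:73869302-73869336 (CXCL1, + strand), chr4:74099251-74099285 (CXCL2, - strand), chr4:74038746-74038780 (CXCL3, - strand), chr4:73998746-73998780 (CXCL5, - strand), chr4:73740465-73740499 (IL8, + strand), chr4:76023652-76023686 (CXCL10, - strand) and chr4:76036124-76036158 (CXCL11, - strand). The motif began 78 bases before the start of CXCL1, 77 before CXCL2, 78 before CXCL3, 90 before CXCL5 and 91 before IL8. In CXCL10 and CXCL11 the capitals are the motif read from the opposite strand, and they began 176 and 75 bases before the start. CCL20 did not hold these letters in its window. An interferon-type motif spelled GAAANNGAAA was in 1 of the 8 promoters, that of CXCL10, and in 3.57% of all promoters. It began 221 bases before the start, in the window chr4:76023696-76023731 on the - strand.
CXCL10: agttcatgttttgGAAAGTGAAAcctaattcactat
An AP-1 motif spelled TGANTCA was in 2 of the 8, IL8 and CXCL11, and in 7.71% of all promoters. The promoters of CXCL1 and CXCL3 were identical at 254 of 308 aligned columns, or 82.5%, while CXCL1 and CXCL2 were identical at 72.1%. The kappa B matches of these genes are therefore not separate cases. Other spellings of the kappa B motif were not searched, and its share among the chemokines was not tested against other promoters. Matches of different motifs did not overlap in any of the 8 promoters. They describe letters and are not measured binding sites.

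RefSeq sequence was at hand for 3 of the transfected RNAs, shown 5′ to 3′ with the seed, bases 2 to 8, in capitals. They are shown because a pair of them is near in seed and their arrays differ in the chemokines.
miR-99a-5p: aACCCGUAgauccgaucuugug
miR-99a-3p: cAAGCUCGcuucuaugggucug
miR-100-3p: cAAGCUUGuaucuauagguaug
In GRCh38.p14 they lie at chr21:16539101-16539122 and chr21:16539138-16539159 on the + strand (miR-99a-5p and the 3p strand) and at chr11:122152240-122152261 on the - strand. Of the 7 seed bases, 6 are the same in miR-99a-3p and miR-100-3p, and of all 22 bases 17 are the same. miR-99a-5p and miR-99a-3p, the opposite strands of 1 hairpin on chromosome 21, share 2 of 7 seed bases.

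The dimmest Cy5 spot that was well above background had a signal of 27.9 to 46.2 over the 8 arrays. Between 19184 and 20919 genes per array were detected, that is, well above background in at least 1 channel, and their median log2 ratio lay between -0.03 and 0.02. The targeted gene FOXQ1 had a log2 ratio of -2.16 ± 0.29 with si-FOXQ1-1 and -2.12 ± 0.28 with si-FOXQ1-2. Here and below the error of a ratio is the error of the spot given by the scanner software, since no condition had a second array. All 5 epithelial markers (KRT8, KRT18, KRT19, EPCAM and CDH1) were well above background in every mock channel, and all 5 squamous markers (KRT5, KRT14, TP63, DSG3 and SFN) were so in FaDu. In PC3, 4 of 5 prostate luminal markers were well above background, KLK3 on none of the 4 mock channels. In PANC-1 the pancreatic duct markers SOX9, KRT7 and MUC1 were well above background, and CFTR was not. The leukocyte marker CD14 was well above background in all 8 mock channels, at signals of 65.5 to 386. PTPRC was so in both FaDu, both PANC-1 and 2 of 4 PC3 channels, at signals of up to 46.7, CD3E in 1 FaDu channel, and MS4A1 in none. Of the endothelial markers, PECAM1 was well above background in all 4 PC3 channels, at 83.1 to 115, and in no other, and CDH5 and VWF had signals of up to 87.9 and 37.0. The part of other cells in the chemokine values was not tested.

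Mock channels of the same line were compared before they were used as replicates. The FaDu channels differed by 1.23 times the error expected from repeated spots, the PANC-1 channels by 1.02 times, and the PC3 channels by 1.27 times between the miR-150-5p and miR-150-3p arrays and by 1.35 times between the miR-99a-3p and miR-100-3p arrays. Across these PC3 pairs the channels differed by 5.19 to 5.79 times that error. The 8 mock channels were thus counted as 4 mock samples, 2 of PC3, 1 of FaDu and 1 of PANC-1. Channels that differed by less than 2 times that error were taken to share a mock sample, which the labels do not state. Where a chemokine was well above background in both channels of a pair, the paired mock levels differed by 0.02 to 0.63 on the log2 scale over 22 such pairs of values, with a median of 0.09. The largest of these differences, 0.63, was that of CXCL5 in FaDu.

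The mock cells of the 3 lines carried different sets of chemokine transcripts. Levels are the log2 Cy3 signal relative to the 75th percentile of the same array, and they were compared between lines within a probe only. FaDu had CXCL1, CXCL2, CXCL3, CXCL5, IL8, CCL20 and CCL5 well above background, PC3 had CXCL1, CXCL2, CXCL3, CXCL5 and IL8, and PANC-1 had CCL2, CXCL1, CXCL2, CXCL5 and CCL5, with CXCL3 so on 1 of 2 channels. CXCL10 and CXCL11 were not well above background in any mock channel. Differences between lines were tested with limma across 21496 genes with Benjamini-Hochberg adjustment, once over the 8 hybridizations, whose spread may be technical, and once with agreeing mock channels counted once. In the latter fit the single FaDu and PANC-1 samples were assumed to vary like PC3. Over hybridizations, 6 of 8 chemokines tested differed between PC3 and FaDu, where 77.7% of all genes passed, 7 of 8 differed between PC3 and PANC-1, where 69.2% passed, and 7 of 8 differed between FaDu and PANC-1, where 72.5% passed. With the mock samples counted once, 7 of 8 differed in each comparison, beside 60.3%, 48.5% and 51.3% of all genes. CXCL3, IL8, CCL20, CCL2 and CCL5 entered the test only through the lines where every mock channel was well above background. These counts therefore describe the set, and the list was not tested against other genes.

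**Figure D1:**
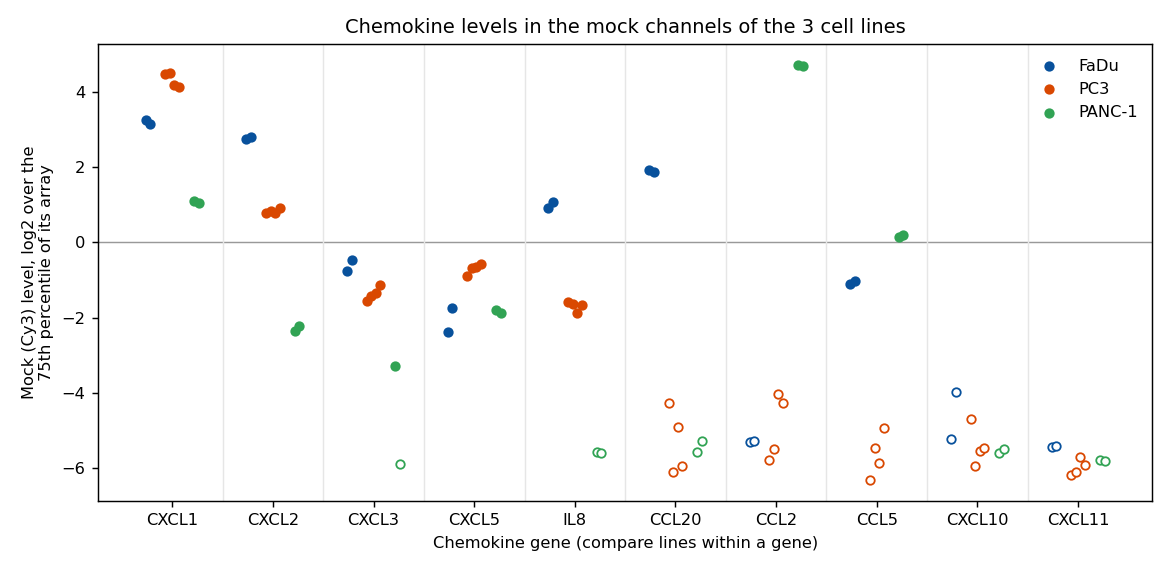
Levels of the 10 chemokines in the mock (Cy3) channels, on the log2 scale relative to the 75th percentile of each array; each point is 1 mock channel of FaDu, PC3 or PANC-1, and open points were not well above background. CCL2 stood at 4.71 in PANC-1 and was at background in the other lines, CCL20 stood at 1.89 in FaDu alone, and CXCL10 and CXCL11 have open points throughout.

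CXCL1 was well above background in every mock channel of the 3 lines. Its mock signal was 1805 and 2883 on the FaDu arrays, 5593, 7300, 6937 and 4235 on the PC3 arrays and 477 and 421 on the PANC-1 arrays. The level was 4.32 ± 0.24 (SD, n = 2) in PC3, 3.20 in FaDu and 1.07 in PANC-1, and the order PC3, FaDu, PANC-1 held without overlap between channels. PC3 exceeded FaDu by 1.13 on the log2 scale (limma adjusted p = 0.000143 over hybridizations and 0.0153 with mock samples counted once), and FaDu exceeded PANC-1 by 2.12 (adjusted p = 1.42e-05 and 0.00598). CXCL2 ran in another order, at 2.78 in FaDu, 0.83 ± 0.03 (SD, n = 2) in PC3 and -2.30 in PANC-1. The difference of 1.95 between FaDu and PC3 was past the threshold in both fits (limma adjusted p = 3.65e-07 and 0.00189).

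IL8 and CCL20 had their highest mock levels in FaDu. The IL8 mock signal was 357 and 686 in FaDu, 84.2, 103, 105 and 75.3 in PC3, and 4.69 and 4.21 in PANC-1, where it was not well above background. FaDu exceeded PC3 by 2.68 on the log2 scale (limma adjusted p = 4.59e-07 and 0.00128) and was at least 27.2-fold higher than PANC-1. The mock signal of CCL20 was 716 and 1196 in FaDu and at most 13.1 in the other lines. FaDu was at least 61.2-fold higher than PC3 and at least 50.8-fold higher than PANC-1. No p is given with a bound, since a gene at background in 1 line entered the test through a line where it was high. Such a bound sets the bright line against the higher of the probe's own signal and the dimmest signal well above background on each array.

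CCL2 was well above background in the mock cells of PANC-1 alone, and CCL5 in those of PANC-1 and FaDu. CCL2, printed 10 times on each array, had a mock signal of 5869 and 5327 in PANC-1 and of at most 24.4 elsewhere. PANC-1 was at least 432-fold higher than PC3 and at least 288-fold higher than FaDu. CCL5 had a mock signal of 244 and 234 in PANC-1, 88.1 and 160 in FaDu, and at most 7.92 in PC3. It was at least 18.5-fold higher in PANC-1 than in PC3, and exceeded FaDu by 1.23 on the log2 scale (limma adjusted p = 0.0279 and 0.0373), a call lost when any 1 mock channel of FaDu or PANC-1 was left out (limma adjusted p = 0.0775 to 0.0945) and without the filter on dim genes (0.0564). CXCL5 was higher in PC3 than in FaDu by 1.36 and than in PANC-1 by 1.14 (limma adjusted p = 0.000313 and 0.0055, and 0.000918 and 0.0105). FaDu and PANC-1 did not differ in CXCL5 past the threshold (difference -0.21 ± 0.20 SE, limma adjusted p = 0.371 and 0.401), though without the mock channel of the FaDu miR-99a-3p array the difference was -0.53 (adjusted p = 0.019). CXCL3 was 0.75 higher in FaDu than in PC3 (limma adjusted p = 0.31 over hybridizations and 0.0315 with mock samples counted once). Its PANC-1 channels, at 22.7 and 3.41, straddled the background and without either of them the adjusted p of the hybridizations was 0.00395.

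After transfection, CXCL1 had a wide span of deposited ratios. The Cy3 and Cy5 signals of its brightest probe (chr4:74736850-74736909, hg19, + strand) went from 1805 to 3808 in FaDu with miR-99a-5p and from 2883 to 12349 with miR-99a-3p. In PC3 they went from 5593 to 5773 with miR-150-5p, from 7300 to 8364 with miR-150-3p, from 6937 to 2959 with miR-99a-3p and from 4235 to 5528 with miR-100-3p. In PANC-1 they went from 477 to 707 with si-FOXQ1-1 and from 421 to 788 with si-FOXQ1-2. The transfected channel of this probe was thus the brighter on 7 of the 8 arrays, though within the spot error with miR-150-5p and miR-150-3p. It was the dimmer on the PC3 miR-99a-3p array. The log2 ratios were 1.08 ± 0.23, 2.10 ± 0.28, 0.05 ± 0.20, 0.20 ± 0.20, -1.23 ± 0.23, 0.38 ± 0.21, 0.57 ± 0.21 and 0.90 ± 0.22 in that order. In bulk RNA, fewer cells with the transcript and less transcript per cell cannot be told apart. A second CXCL1 probe, 1204 bases away, gave smaller ratios of the same sign where they were large: 0.78 ± 0.22 and 1.44 ± 0.24 in FaDu, -0.87 ± 0.22 in PC3 with miR-99a-3p, and 0.32 ± 0.23 and 0.70 ± 0.23 in PANC-1.

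The same miRNA, miR-99a-3p, thus went with opposite ratios of CXCL1 in the 2 lines that received it, 2.10 in FaDu and -1.23 in PC3. The difference of 3.33 on the log2 scale was not tested, since each line had 1 array. Both probes had these signs, and the mock levels of CXCL1 repeated within 0.10 in FaDu and 0.03 in the PC3 pair.

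CXCL2 and CXCL3 did not share the FaDu pattern of CXCL1, although the 3 genes lie close together on chromosome 4. The brightest CXCL2 probe (chr4:74962985-74963044, hg19, - strand) had log2 ratios of 0.55 ± 0.21 and -0.85 ± 0.22 in FaDu, -0.44 ± 0.21, 0.44 ± 0.21, -0.19 ± 0.21 and 0.59 ± 0.21 in PC3, and 0.69 ± 0.33 and 0.77 ± 0.30 in PANC-1. A second CXCL2 probe, nearly as bright, disagreed with it under miR-99a-3p, at -0.04 ± 0.20 in FaDu and at -0.67 ± 0.22 in PC3. The ratio of CXCL2 on these arrays therefore depends on the probe.

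CXCL3 (chr4:74902702-74902761, hg19, - strand) had ratios of opposite sign on the FaDu arrays. Its signal went from 111 to 243 in FaDu with miR-99a-5p and from 233 to 55.3 with miR-99a-3p, log2 ratios of 1.12 ± 0.24 and -2.08 ± 0.32. With normexp background correction and loess in place of the deposited ratios, these became 0.75 and -1.08. In PC3 the log2 ratios were -0.36 ± 0.25 with miR-150-5p, -0.04 ± 0.23 with miR-150-3p, -0.87 ± 0.27 with miR-99a-3p and 0.17 ± 0.23 with miR-100-3p. In PANC-1 no channel of transfected cells was well above background. The 60-base probes of CXCL1 and CXCL3 had 20 identical bases at their best ungapped alignment and no shared run longer than 7 bases. Probes were compared with each other only, so whether a probe could read the other gene's transcript was not tested. The largest likeness between probes of CXCL1, CXCL2, CXCL3, CXCL5 and IL8 was 32 identical bases, between the second probes of CXCL1 and CXCL2.

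**Figure D2:**
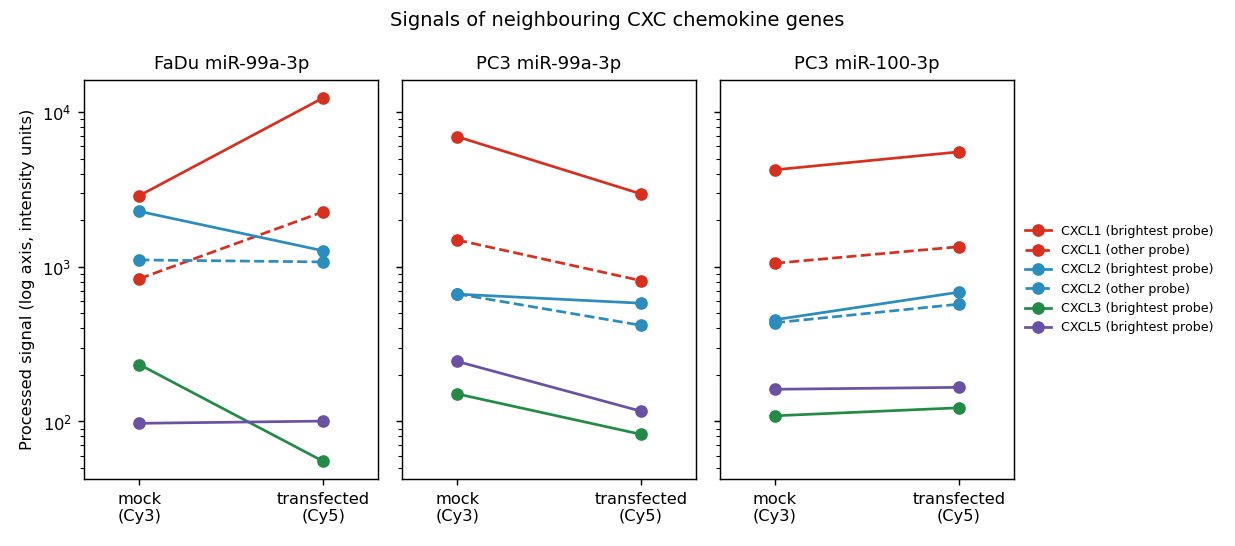
Processed signals (log axis, intensity units) of every CXCL1, CXCL2, CXCL3 and CXCL5 probe in the mock (Cy3) and transfected (Cy5) channels of 3 arrays; solid lines are the brightest probe of a gene and dashed lines the other probe. With miR-99a-3p in FaDu both CXCL1 lines climb, from 2883 to 12349 and from 837 to 2265, while CXCL3 drops from 233 to 55.3; with the same miRNA in PC3 all lines drop.

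CXCL5 was measured in all 3 lines and IL8 in FaDu and PC3. CXCL5 (chr4:74861898-74861957, hg19, - strand) had a log2 ratio of -1.07 ± 0.25 with miR-99a-3p in PC3, where the signal went from 245 to 117. On the other arrays it stayed between -0.31 and 0.05, and the lowest of these, in FaDu with miR-99a-5p, had a Cy5 signal that was not well above background. With normexp and loess the ratio on the PC3 miR-99a-3p array became -0.70.

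IL8 (chr4:74609265-74609324, hg19, + strand) had a log2 ratio of 0.70 ± 0.22 in FaDu with miR-99a-5p and of -0.22 ± 0.21 there with miR-99a-3p. In PC3 they were -0.05 ± 0.24 with miR-150-5p, 0.88 ± 0.24 with miR-150-3p and 0.74 ± 0.26 with miR-100-3p. With miR-99a-3p in PC3 the signal went from 105 to 45.1, and that Cy5 signal did not clear the background, so that IL8 was at least 2.29-fold lower there on the deposited signals, a bound that other processing did not keep. IL8 was thus lower with miR-99a-3p and higher with miR-100-3p in PC3, against mock channels counted as 1 sample. With normexp and loess, the values were 0.52 for miR-150-3p, -0.46 for miR-99a-3p and 0.37 for miR-100-3p. The array also holds a probe for a transcript fragment, THC2544321, that its annotation describes as partial interleukin 8, starting 1283 bases before the IL8 probe. In FaDu this probe had log2 ratios of 1.58 ± 0.26 with miR-99a-5p and -1.11 ± 0.26 with miR-99a-3p, and it was not used for IL8. The signs in FaDu were those of the IL8 probe and the sizes were larger.

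CCL20 (chr2:228681100-228681836, hg19, + strand) was detected in FaDu alone. Its signal went from 716 to 839 with miR-99a-5p and from 1196 to 619 with miR-99a-3p. The log2 ratios were 0.23 ± 0.21 and -0.95 ± 0.22.

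Among the 10 chemokines, CCL2 and CCL5 were those that separated the FOXQ1 siRNAs in PANC-1. The signal of CCL2 (chr17:32584050-32584109, hg19, + strand) went from 5869 to 2818 with si-FOXQ1-1 and from 5327 to 4336 with si-FOXQ1-2. The log2 ratios were -1.06 ± 0.23 and -0.30 ± 0.21, and the SD between its 10 spots was 0.05 and 0.06. CCL5 (chr17:34199332-34199391, hg19, - strand) went from 244 to 124 with si-FOXQ1-1 and from 234 to 236 with si-FOXQ1-2, log2 ratios of -0.98 ± 0.23 and 0.01 ± 0.21. Both chemokines were thus lower with the first siRNA by more than the spot error and nearer to the mock level with the second, while FOXQ1 itself was at -2.16 and -2.12. Whether the siRNAs differ was not tested, since each had 1 array. With normexp and loess, CCL5 was at -0.74 with si-FOXQ1-1. In FaDu, CCL5 had log2 ratios of 0.49 ± 0.24 with miR-99a-5p and 0.37 ± 0.23 with miR-99a-3p. In PC3 it was not well above background in any channel.

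CXCL10 (chr4:76943520-76943579, hg19, - strand) and CXCL11 (chr4:76955615-76955674, hg19, - strand) were not well above background in either channel of any of the 8 arrays. The highest Cy5 signal of the brightest CXCL10 probe was 29.9, in FaDu with miR-99a-3p, where the dimmest Cy5 spot well above background had 46.2, and a second CXCL10 probe was also at background throughout. The highest Cy5 signal of CXCL11 was 13.0, on the same array. Transcripts below this limit would not have been detectable, and no ratio is given for these genes.

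**Figure D3:**
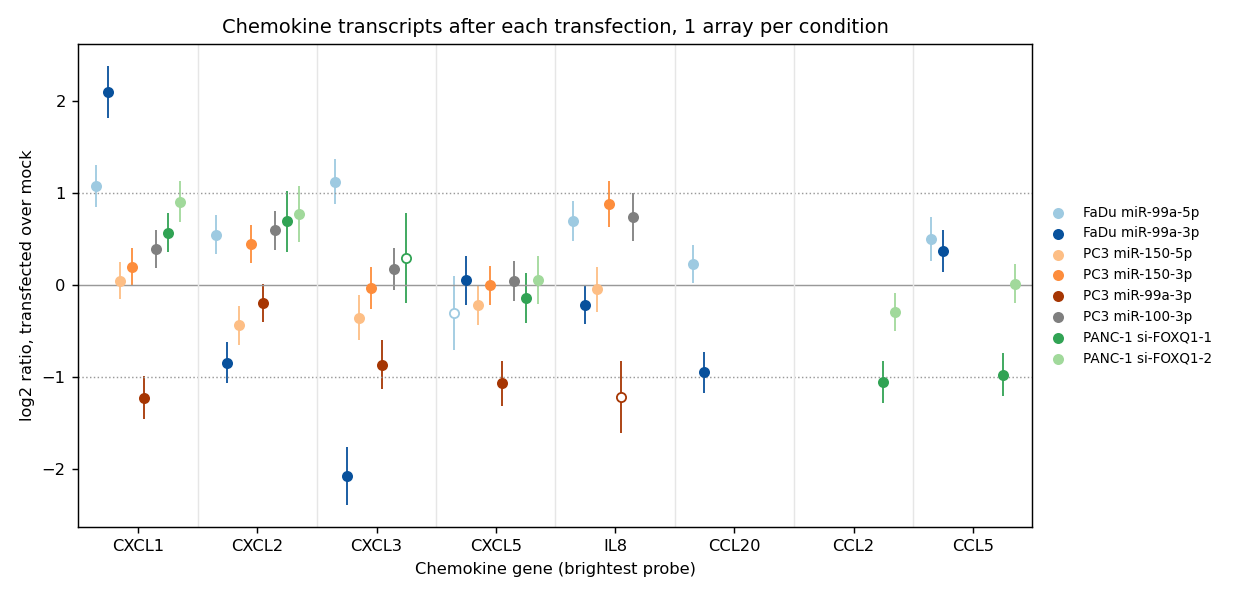
Log2 ratios of transfected (Cy5) over mock (Cy3) signal for the 8 chemokines detected on at least 1 array, with the spot error as bars; each colour is 1 array, and open points had 1 channel that was not well above background. CXCL1 lies at 2.10 and CXCL3 at -2.08 on the FaDu miR-99a-3p array, and the 5 points of the PC3 miR-99a-3p array all lie below 0.

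Counted over the 10 genes, the chemokines past a log2 ratio of 1 or -1 were few. With miR-99a-5p in FaDu, 2 of 7 detected chemokines were above 1 (CXCL1 and CXCL3) and 0 below -1, beside 0.851% and 4.86% of all detected genes. With miR-99a-3p in FaDu, 1 of 7 was above 1 (CXCL1) and 1 below -1 (CXCL3), beside 8.25% and 9.37%. With miR-99a-3p in PC3, 3 of 5 were below -1 (CXCL1, CXCL5 and IL8) and 0 above 1, beside 7.39% and 4.23%. With si-FOXQ1-1, 1 of 6 was below -1 (CCL2) and 0 above 1, beside 3.31% and 0.905%. On the other 4 arrays none passed either limit, beside 0.664% above and 4.49% below with miR-150-5p, 2.69% and 6.68% with miR-150-3p, 0.987% and 3.34% with miR-100-3p, and 0.412% and 3.29% with si-FOXQ1-2. With 5 to 7 detected members, each count rests on 1 to 3 genes. With normexp and loess, PC3 with miR-99a-3p had 1 count below -1 in place of 3, and the count above 1 on the FaDu miR-99a-5p array was 1 in place of 2.

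The medians of the NF-kB-type chemokines differed between arrays. In FaDu they were 0.62 over 6 detected genes with miR-99a-5p and -0.53 over 6 with miR-99a-3p, the latter with members from -2.08 to 2.10. In PC3 the medians over 5 detected genes were -0.22 with miR-150-5p, 0.20 with miR-150-3p, -1.07 with miR-99a-3p and 0.38 with miR-100-3p. In PANC-1 they were 0.29 over 5 genes with si-FOXQ1-1 and 0.41 over 4 with si-FOXQ1-2. Over all detected genes the medians were between -0.03 and 0.02. For the pair of miRNAs near in seed, all 5 detected chemokines in PC3 had ratios below 0 with miR-99a-3p and all 5 above 0 with miR-100-3p. Of all detected genes, 51.2% and 47.4% were above 0 on these arrays in turn. Their mock channels were counted as 1 sample. Within the spot error of 0 were CXCL2 with miR-99a-3p (-0.19 ± 0.21), and CXCL3 (0.17 ± 0.23) and CXCL5 (0.04 ± 0.21) with miR-100-3p. With normexp and loess the miR-99a-3p median was -0.58. Of the interferon-type class CCL5 alone was ever detected, on 4 arrays, so that a median of that class is the value of CCL5, and the classes could not be compared in PC3.

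Genes of the NF-kB pathway gave a background for these values. Of 35 genes in the list, with RELA, NFKBIA and TNFAIP3 among them, 27 to 34 were detected per array. With miR-99a-3p in FaDu, 5 of 34 were above 1, namely TNF, CSF3, LIF, BCL3 and IKBKE, and 1, TNFAIP3, a feedback inhibitor of the pathway, was below -1, beside 8.25% and 9.37% of all detected genes. With miR-99a-3p in PC3, 5 of 31 were below -1 and 0 above 1, beside 7.39% and 4.23% of all detected genes. The 5 were the cytokine genes IL1B, CSF2 and LIF, the prostaglandin synthase PTGS2 and the receptor-associated kinase IRAK1. IRAK1 was also at -1.25 ± 0.23 with miR-150-5p in PC3. With miR-100-3p, 3 of 32 were above 1 (IL1B, CSF3 and PTGS2) and 0 below -1, beside 0.987% and 3.34%. There CSF3 and PTGS2 were well above background in the Cy5 channel only, as was IKBKE with miR-99a-3p in FaDu. CSF2 and PTGS2 were so in the Cy3 channel only with miR-99a-3p in PC3. The ratios of these genes therefore rest on a signal near the background. IL1B, an upstream signal of these chemokines, had log2 ratios of -1.11 ± 0.23 with miR-99a-3p and 1.48 ± 0.25 with miR-100-3p in PC3. With miR-150-5p it was at -0.37 ± 0.21, and with miR-150-3p at -0.97 ± 0.22, where IL8 was at 0.88. In FaDu IL1B was at 0.12 ± 0.20 with miR-99a-5p and 0.07 ± 0.20 with miR-99a-3p, where CXCL1 was at 1.08 and 2.10. The part of IL1B in the chemokine values was not tested. TNF had 2.24 ± 0.30 with miR-99a-3p in FaDu and was not well above background in PC3 or PANC-1. CSF3, which supports granulocytes, had 1.54 ± 0.34 on the same FaDu array. MYD88, an adaptor of the Toll-like and IL1 receptors, had -1.76 ± 0.26 with miR-150-3p in PC3. The list medians lay between -0.17 and 0.17 on all arrays. The FOXQ1 siRNAs left 0 of 27 detected genes past either limit. Of all detected genes, 0.905% were above 1 and 3.31% below -1 with si-FOXQ1-1, and 0.412% and 3.29% with si-FOXQ1-2.

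The interferon-type chemokines were set beside 25 genes of RNA sensing and interferon responses. With miR-150-3p in PC3, 14 of 22 detected genes of the list were above 1 and 0 below -1, beside 2.69% and 6.68% of all detected genes, with a median of 1.40 beside -0.02 over all detected genes. RSAD2, MX1 and IFIT1, which are antiviral effectors, had log2 ratios of 3.30 ± 0.37, 3.12 ± 0.36 and 2.76 ± 0.33 there, and IFIT3 had 1.87 ± 0.27. On that array CXCL10, CXCL11 and CCL5 had Cy5 signals of 18.5, 6.30 and 15.8, below the 34.6 of the dimmest spot well above background. The interferon-responsive genes were thus high without a detected interferon-type chemokine, while IL8 was at 0.88 and CXCL1 at 0.20. With miR-99a-3p in FaDu, 7 of 24 genes of the list were above 1 and 1, IRF7, below -1, beside 8.25% and 9.37% of all detected genes, with a list median of 0.54, and CCL5 was at 0.37. With si-FOXQ1-1 in PANC-1, 2 of 21 were above 1 and 2 below -1, beside 0.905% and 3.31%. MX1 was at 2.00 ± 0.28 and IFIT3 at -1.02 ± 0.22 on that array, where CCL5 was at -0.98. With si-FOXQ1-2, 0 of 21 were above 1 and 2 below -1, beside 0.412% and 3.29%. IFIT3 was again at -1.02 ± 0.22 there, while CCL5 was at 0.01. On the other arrays the list median lay between -0.15 and 0.35.

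**Figure D4:**
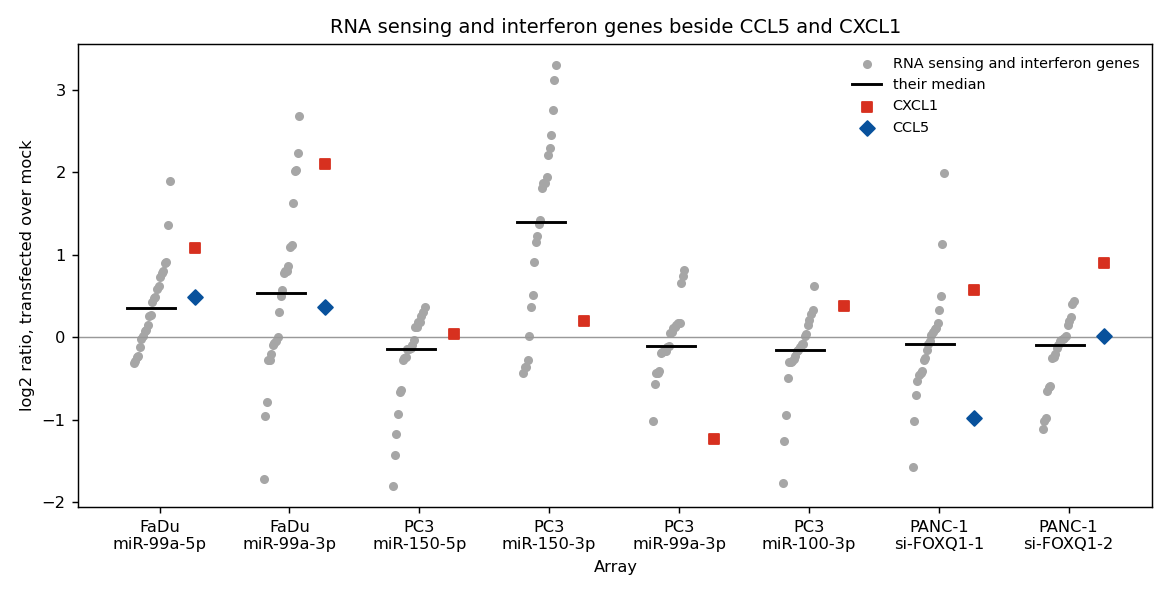
Log2 ratios of the detected genes of RNA sensing and interferon responses (grey points, black line at their median) on each of the 8 arrays, with CXCL1 (red squares) and, where detected, CCL5 (blue diamonds). The list median is 1.40 with miR-150-3p in PC3, where no diamond is drawn because CCL5 was not well above background.

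Most other chemokine genes and receptor genes were not detected. Of 22 further chemokine genes with a probe, 6 or 7 were detected per array, and 0 to 2 were past 1 or -1 in either direction. Over the arrays, 0.412% to 8.25% of all detected genes were above 1 and 3.29% to 9.37% below -1. CXCL6, another ELR chemokine, was detected in PC3 alone and had log2 ratios of -0.69 ± 0.22, 0.76 ± 0.22, -1.02 ± 0.23 and 0.89 ± 0.22 with miR-150-5p, miR-150-3p, miR-99a-3p and miR-100-3p. Its signs on the last pair were those of CXCL1, CXCL3 and IL8. CX3CL1, a membrane-bound chemokine, was measured in PANC-1, at -1.13 ± 0.23 and -1.02 ± 0.23, values within the spot error of each other. CXCL16, the ligand of CXCR6, was at 1.07 ± 0.23 with miR-99a-3p in FaDu. It was at 1.02 ± 0.32 with si-FOXQ1-1 and at 0.27 ± 0.37 with si-FOXQ1-2. In PC3 CXCL16 was at 0.67 ± 0.23 with miR-99a-3p and at -0.20 ± 0.23 with miR-100-3p, signs opposite to those of CXCL6. CCL26, an eosinophil attractant, was at -1.65 ± 0.28 with miR-150-5p in PC3.

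Of 17 receptor genes, 4 to 6 were detected per array. CXCR4, the receptor of CXCL12, had a log2 ratio of 3.70 ± 0.41 with miR-150-3p in PC3, 1.39 ± 0.25 in FaDu with miR-99a-5p, -1.24 ± 0.26 there with miR-99a-3p, 1.48 ± 0.32 with si-FOXQ1-1 and -1.07 ± 0.51 with si-FOXQ1-2, where its Cy5 signal was not well above background. In FaDu its signs were those of CXCL3. CCR7, a lymph node homing receptor, was at 1.57 ± 0.32 with miR-99a-3p in FaDu. ACKR3, a scavenger of CXCL12, was at 1.18 ± 0.23 and 1.03 ± 0.23 with miR-99a-3p and miR-100-3p in PC3, the same sign where CXCL1, IL8 and CXCL6 had opposite ones. CXCR3, the receptor of CXCL10 and CXCL11, reached 0.82 ± 0.32, with miR-99a-3p in FaDu.

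Of 7 genes that govern the decay of AU-rich mRNAs, a class that holds many chemokine mRNAs, all were detected on every array. Only 1 passed a limit, with miR-99a-3p in PC3, where 4.23% of all detected genes were above 1. This was ZFP36L1, at 1.23 ± 0.23 with miR-99a-3p in PC3 and at -0.52 ± 0.21 with the same miRNA in FaDu. ZFP36L2 was at 0.76 ± 0.24 on that FaDu array and at -0.18 ± 0.21 in PC3 with miR-99a-3p. HNRNPD and KHSRP were at -0.70 ± 0.21 and -0.62 ± 0.21 with miR-99a-3p in PC3, where the median of the list was -0.18. The part of these genes in the chemokine values was not tested.

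CXCL1, CXCL2 and CXCL5 were detected on all 8 arrays, and their patterns over the arrays were compared with those of 3527 or 3528 other genes by Pearson's r of the log2 ratios. The points are 8 arrays of 3 lines, with mock channels counted as 4 samples. The genes named are the highest of all those compared, so that r is a description only. CXCL1 was most like CENPO (r = 0.99), CENPA (0.99) and KIF18A (0.99), genes of the centromere and the mitotic spindle. CXCL2 was most like MTHFD2 (0.95), an enzyme of mitochondrial folate metabolism, HAS2-AS1 (0.95) and OSBPL6 (0.93). CXCL5 was most like C12orf66 (0.95), the probe A_33_P3289000 (0.95), which has no gene symbol here, and FGF3 (0.94). None of the 3 chemokines was among the genes most like another.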

How the data were processed

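RNA was extracted with Trizol, and mock and transfected RNA of each condition were hybridized together. Scans were read by the authors in Agilent Feature Extraction 10.7.3.1. That software subtracted the background from the deposited intensities and normalized the dyes on each array, with no scaling between arrays. The deposited log10 ratios are of Cy5 over Cy3. All 8 arrays were on 1 slide scanned on 1 day. Probe coordinates are those of the array annotation (hg19). The exon of each probe was not analysed here.

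From these files, log10 ratios were turned into log2 ratios. Control spots and spots flagged as outliers, 81 to 178 per array, were left out, and repeated spots were averaged per probe. The brightest probe stood for a gene (mean over both channels of the 8 arrays), which left 43317 genes of 58201 probes. No test was made of ratios, since each condition had 1 array, and the number of arrays limits the precision. A limit of 1 on the log2 scale was used for counts. Mock levels were compared with limma 3.58.1 (R 4.3.3) on genes well above background in every mock channel of at least 1 line, at an adjusted p threshold of 0.05. The test was checked on simulated data.

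The chemokines, their classes and the other gene lists were chosen with earlier results of these data known. All 10 chemokines are named. Of each other list, genes past the limit on an array the text turns on, and at most 4 genes with the largest ratios measured in both channels, are named. The genes most like a chemokine are the 3 with the highest r among genes detected on all arrays with an SD of at least 0.5. NF-kB pathway and interferon genes past the limit beyond those 4 were named after their values were seen. A marker gene of the lists is not reported here.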

Additional observations from a re-analysis of the deposited data

Results flagged for a closer look

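CXCL1 had a log2 ratio of 2.10 ± 0.28 with miR-99a-3p in FaDu and of -1.23 ± 0.23 with the same miRNA in PC3, a difference of 3.33. It is given here because the ratios run in opposite directions under 1 miRNA, both well above background in both channels and both larger than the spot error. The difference was not tested, since each line had 1 array. The second CXCL1 probe gave 1.44 and -0.87.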

How the results depend on the processing

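No paired analysis was possible because no group of samples had more than 1 array. Under normexp with loess, the NF-kB-type median was -0.58 with miR-99a-3p in PC3, CCL5 was -0.74 with si-FOXQ1-1, and the counts were 1 above 1 with miR-99a-5p in FaDu and 1 below -1 with miR-99a-3p in PC3. With the mean of the mock channels of a line as the control, that median was -0.58 and both counts were 1. The mean over probes and the lowest probe each gave 1 above 1 with miR-99a-5p in FaDu. Without a filter on dim probes, the NF-kB-type median was -0.22 with miR-99a-3p in FaDu, 0.00 with si-FOXQ1-1 and 0.0486 with si-FOXQ1-2, the interferon-type median was 0.00 with miR-99a-5p in FaDu and with si-FOXQ1-1, and the counts above 1 were 2 with miR-150-3p, 1 with miR-100-3p and 1 with si-FOXQ1-2. Leaving CCL2 and CCL5 out of the classes made the NF-kB-type median 0.77 with si-FOXQ1-2. A limit of 0.58 gave 3 below with miR-99a-3p in FaDu, 2 below and 1 above with si-FOXQ1-1, and 1, 2 and 2 above with miR-150-3p, miR-100-3p and si-FOXQ1-2. A limit of 2 gave 0 above with miR-99a-5p in FaDu, and 0 below with miR-99a-3p in PC3 and with si-FOXQ1-1. The cause was not tested. Of 270 single ratios recomputed, 243 stayed within the spot error, 27 moved by more, and those past 1 or -1 kept their sign. The counts of chemokines that differ between mock lines stayed within 1.5 times under every alternative, the one chosen after seeing the data (mock channels counted once) included. Signals near the background limit CXCL3, CXCL5 and IL8.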
